A study of Rattus norvegicus with 2 samples.

Results

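The potassium channel subunits on the array were taken as the non-control probe sets whose platform annotation gave exactly 1 gene symbol beginning with Kcn and a further lower-case letter. This gave 126 probe sets of 75 genes, out of 31042 non-control probe sets in all. The rule used symbols and no measured value, though it was set with earlier results of these data known. Total RNA from rat lung had been hybridised to 2 Affymetrix Rat Genome 230 2.0 arrays, where a probe set is a group of short probes for a transcript. The array of experimenter 2 was set against the array of experimenter 1. Both came from lung, with RNA purified on columns and labelled with biotin. Strain, sex, age, number of animals, treatment, and whether both arrays began from the same lung or RNA, are not stated in the labels. The question named by the study title is how reproducible the expression values are. With 1 array per experimenter there was no replicate error, so no difference was tested.

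Potassium channels let potassium ions cross the membrane and hold the resting potential of cells. Pore-forming subunits assemble around a shared pore and open with voltage, with intracellular calcium or sodium, or, as inward rectifiers and tandem-pore channels, near rest. Accessory subunits bind them and alter their gating or traffic. In the lung, potassium channels are known to set the tone of pulmonary artery and airway smooth muscle and the driving force for ion and fluid transport by epithelium.

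The lung identity of the RNA was checked by marker genes. The 5 alveolar type 2 markers ran from 12.53 to 14.36 for experimenter 2 and from 12.65 to 14.39 for experimenter 1, as deposited log2 values. All 6 smooth muscle markers lay above the median of both arrays, whereas 0 of the 5 measured cardiac muscle markers and 0 of the 4 measured neuroendocrine markers did. The arrays had medians of 6.28 for experimenter 2 and 6.32 for experimenter 1, and the 10th percentiles were 3.37 for experimenter 2 and 3.44 for experimenter 1. All values below are on this scale and are signals: they depend on how well the probes bind as well as on RNA, so the order of genes is an order of signal and not of RNA amount. In whole lung, fewer cells of a type and less RNA per cell cannot be told apart.

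Most potassium channel probe sets had low signal. Of the 126, 19 (15.1%) lay above the median on both arrays, against 48.6% of all non-control probe sets and 57.4% of those with 1 gene symbol. Only 4 of the 126 (3.2%) lay above the upper quartile on both arrays, against 23.7% of all. A probe set was called near the floor when its mean over both arrays was at or below the 10th percentile of all means, which was 3.41. By this rule 22 of the 126 (17.5%) were near the floor, against 10% of all probe sets and 6.87% of those with 1 symbol. The array gives no detection calls here, so a value near the floor is a low signal and not an absence of RNA. By their brightest probe sets, 17 of the 75 genes lay above the median and 7 near the floor, against 66.1% and 5.48% of the 14217 genes with 1 symbol. The median over the 126 was 4.32 for experimenter 2 and 4.37 for experimenter 1.

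**Figure D1:**
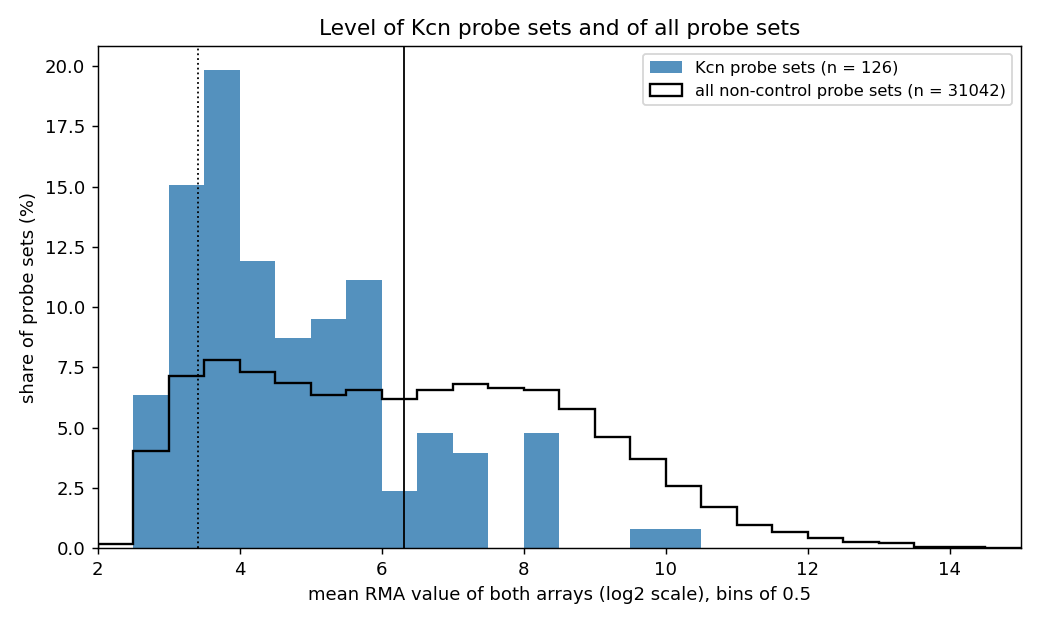
Share of probe sets (%) by mean RMA value of both arrays, in bins of 0.5 on the log2 scale, for the 126 Kcn probe sets (filled) and all 31042 non-control probe sets (outline). The solid line is the median and the dotted line the 10th percentile of all means; most of the filled bars lie left of the solid line.

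The 2 highest signals stood apart from the rest of the family. *Kcns3*, which encodes a modifier subunit that forms no channel alone but joins other voltage-gated pore subunits, measured 10.24 for experimenter 2 and 10.20 for experimenter 1, at percentile 94.5 of all probe sets by mean. In rat pulmonary artery smooth muscle this subunit is known to contribute to an oxygen-sensitive current. *Kcnj15*, the inward rectifier Kir4.2, measured 10.13 for experimenter 2 and 9.86 for experimenter 1, at percentile 93.1. The next probe set, of *Kcne2*, had a mean of 8.47. Both *Kcns3* and *Kcnj15* held the same ranks, 1 and 2, on each array, *Kcnj15* by the brighter of its 2 probe sets. The dimmer *Kcnj15* probe set had a mean of 5.07, at percentile 34.2.

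The promoter letters of these genes are shown because they are the brightest of the family, beside *Kcnd3*, which had the largest difference between the arrays, and *Kcna4*, the dimmest gene with an entry. Each run is the 250 bases before the first start listed for the gene in RefSeq's GRCr8 annotation, 5′ to 3′ on the gene's strand, with the CpG dinucleotides in capitals.
*Kcns3*, chr6:39584106-39584355, minus strand: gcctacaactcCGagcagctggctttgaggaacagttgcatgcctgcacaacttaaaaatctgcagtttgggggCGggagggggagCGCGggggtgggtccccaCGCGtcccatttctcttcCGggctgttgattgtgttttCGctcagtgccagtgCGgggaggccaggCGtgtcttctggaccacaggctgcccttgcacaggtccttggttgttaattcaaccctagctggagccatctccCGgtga
*Kcnj15*, chr11:48070700-48070949, plus strand: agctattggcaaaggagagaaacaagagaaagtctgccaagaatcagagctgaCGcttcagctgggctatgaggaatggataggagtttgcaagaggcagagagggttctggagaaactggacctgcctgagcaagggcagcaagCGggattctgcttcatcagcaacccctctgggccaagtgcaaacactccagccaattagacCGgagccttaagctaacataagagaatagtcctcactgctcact
*Kcnd3*, chr2:195626066-195626315, plus strand: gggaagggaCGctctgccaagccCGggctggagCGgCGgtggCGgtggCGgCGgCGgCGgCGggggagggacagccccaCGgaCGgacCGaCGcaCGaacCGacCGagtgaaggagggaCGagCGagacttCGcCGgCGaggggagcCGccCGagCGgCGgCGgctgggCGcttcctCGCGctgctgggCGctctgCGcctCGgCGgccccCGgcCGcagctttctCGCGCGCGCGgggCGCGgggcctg
*Kcna4*, chr3:114215086-114215335, plus strand: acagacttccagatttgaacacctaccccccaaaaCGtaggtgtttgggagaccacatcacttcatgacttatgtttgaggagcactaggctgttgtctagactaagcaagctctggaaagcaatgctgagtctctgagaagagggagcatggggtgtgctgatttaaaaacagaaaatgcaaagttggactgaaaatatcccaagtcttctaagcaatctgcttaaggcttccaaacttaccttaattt
The *Kcns3* run held 11 CpG dinucleotides, an observed-over-expected ratio of 0.51, and that of *Kcnj15* held 3, a ratio of 0.19. The *Kcnd3* run held 43, a ratio of 1.11, and that of *Kcna4* held 1, a ratio of 0.09. A ratio of at least 0.6 was found in 35.7% of the 27457 promoters of the table, whose median was 0.41. The 2 brightest genes thus both lay under 0.6, on either side of that median. Of the 75 genes, 52 (69.3%) had an entry, which is under the 80% needed, so a comparison of promoter content with signal over the family would be void and was not made. *Kcns3* had 2 starts listed, and which start is used in these lungs was not measured.

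Among the voltage-gated pore subunits, 4 of 24 genes lay above the median of both arrays by their brightest probe set. Over all genes this share was 66.1%. *Kcnd3*, the A-type channel subunit Kv4.3, measured 7.77 for experimenter 2 and 8.38 for experimenter 1. *Kcnq5*, the Kv7.5 subunit known from vascular smooth muscle, measured 7.96 for experimenter 2 and 8.07 for experimenter 1. *Kcnh3*, an ether-à-go-go-like subunit known mainly from brain, measured 7.15 for experimenter 2 and 7.08 for experimenter 1. *Kcnq1*, the Kv7.1 subunit of heart and epithelia, measured 6.99 for experimenter 2 and 7.17 for experimenter 1. *Kcnd3* was the 1 of the 4 whose arrays were more than 0.2 apart. *Kcna4*, the Kv1.4 subunit, was the 1 gene of this class near the floor, where 5.48% of all genes were. It measured 2.86 for experimenter 2 and 2.64 for experimenter 1. The other 19 genes lay between: *Kcnh2*, *Kcnc4*, *Kcnq3*, *Kcna6*, *Kcna2*, *Kcnh4*, *Kcnd1*, *Kcnh6*, *Kcnh1*, *Kcnb2*, *Kcnc2*, *Kcna5*, *Kcnh8*, *Kcnd2*, *Kcna1*, *Kcna3*, *Kcnh7*, *Kcnc1* and *Kcnh5*, in falling order of mean from 6.21 to 3.44. *Kcna5*, whose product Kv1.5 is known from pulmonary artery smooth muscle and which is singled out here after its values were seen, measured 4.27 for experimenter 2 and 4.10 for experimenter 1. *Kcnb2*, a delayed rectifier subunit, measured 3.98 for experimenter 2 and 4.53 for experimenter 1.

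*Kcns3* was the 1 of 7 modifier genes above the median, where 66.1% of all genes lay. Modifier subunits (the Kv5, Kv6, Kv8 and Kv9 kinds) change the gating of other voltage-gated channels. *Kcng2*, *Kcns1*, *Kcnv2* and *Kcns2* had means from 5.53 down to 3.84. *Kcnv1*, of the Kv8.1 kind, was at 2.86 for experimenter 2 and 2.73 for experimenter 1, while *Kcng3*, of the Kv6.3 kind, was at 3.20 for experimenter 2 and 2.99 for experimenter 1. Both were near the floor, where 5.48% of all genes were. The class thus held the brightest gene of the family and some of its dimmest.

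None of the 5 calcium- or sodium-activated pore genes (9 probe sets) lay above the median on either array. By brightest probe sets, 66.1% of all genes lay above it on both arrays. *Kcnn4*, the intermediate-conductance calcium-activated channel of epithelia and lymphocytes, measured 5.51 for experimenter 2 and 5.70 for experimenter 1. *Kcnn1* and *Kcnn3*, of the small-conductance channels, had means of 5.68 and 5.22, and *Kcnt1*, a sodium-activated channel, had one of 5.55. *Kcnma1*, the pore of the large-conductance BK channel, had 3 probe sets, of which 2 were near the floor and the brightest measured 3.82 for experimenter 2 and 3.49 for experimenter 1. *Kcnmb1*, the BK accessory subunit of smooth muscle, measured 3.77 for experimenter 2 and 3.75 for experimenter 1, at percentile 15.5. The further BK accessory gene *Kcnmb4* lay above the median of both arrays and is given with the accessory subunits. The 6 smooth muscle markers ran from 8.02 to 11.61 for experimenter 2 and from 8.07 to 11.71 for experimenter 1. *Kcnma1* and *Kcnmb1* were singled out after their values were seen.

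Of the 15 inward rectifier genes, 2 lay above the median, where 66.1% of all genes did. *Kcnj15* is given above, and *Kcnj4*, the strong rectifier Kir2.3, measured 6.91 for experimenter 2 and 6.99 for experimenter 1. *Kcnj8*, the Kir6.1 pore of vascular ATP-sensitive channels, sat on the median: it measured 6.31 for experimenter 2, just above that array's median, and 6.29 for experimenter 1, just below that array's median. It was the highest member not counted, and *Kcne4*, with a mean of 6.66, was the lowest one counted. *Abcc9*, which encodes the sulphonylurea receptor that pairs with Kir6.1, measured 9.10 for experimenter 2 and 9.18 for experimenter 1, whereas *Abcc8*, the receptor of pancreatic beta cells, measured 3.51 for experimenter 2 and 3.90 for experimenter 1. Near the floor were 4 of the 15, *Kcnj1*, *Kcnj9*, *Kcnj16* and *Kcnj10*, where 5.48% of all genes were. *Kcnj1*, the ROMK channel of the kidney, measured 2.72 for experimenter 2 and 3.21 for experimenter 1. *Kcnj9*, a G-protein-gated subunit of neurons, measured 3.17 for experimenter 2 and 3.27 for experimenter 1. *Kcnj16* (Kir5.1) and *Kcnj10* (Kir4.1) had means of 3.31 and 3.33. By probe sets, 8 of 26 (30.8%) in this class were near the floor, against 10% of all probe sets. *Kcnj5*, *Kcnj13*, *Kcnj3*, *Kcnj14*, *Kcnj11*, *Kcnj6*, *Kcnj2* and *Kcnj12* lay between, with means from 5.97 to 4.18.

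Tandem-pore subunits carry a pair of pore loops and give background current. By brightest probe sets, 3 of their 11 genes lay above the median, where 66.1% of all genes did. None was near the floor, where only 5.48% of all genes were. *Kcnk6* (TWIK-2) measured 8.08 for experimenter 2 and 8.32 for experimenter 1. *Kcnk2*, the stretch-sensitive TREK-1, measured 6.85 for experimenter 2 and 7.05 for experimenter 1, and *Kcnk1* (TWIK-1) measured 6.68 for experimenter 2 and 6.79 for experimenter 1. All 3 were lower on the array of experimenter 2, by less than 0.25. *Kcnk3*, the acid-sensitive TASK-1, which is known in people as a gene of heritable pulmonary arterial hypertension and is singled out here after its values were seen, measured 5.89 for experimenter 2 and 5.81 for experimenter 1 by its brightest of 3 probe sets. The other 7, *Kcnk5*, *Kcnk12*, *Kcnk13*, *Kcnk15*, *Kcnk10*, *Kcnk9* and *Kcnk4*, had means from 5.44 to 3.43.

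Among the 6 classes, accessory subunits had the largest share above the median, 7 of 13 genes and 8 of 26 probe sets (30.8%). Both shares were still below those over all genes (66.1%) and all probe sets (48.6%). *Kcne2*, a single-span partner of Kv7.1 and of other pores, measured 8.68 for experimenter 2 and 8.27 for experimenter 1 by its brightest probe set. That probe set is of a design marked as having probes that may match other transcripts, and whether they contributed was not tested. *Kcnip3*, a calcium-binding Kv4 partner also known as the transcriptional repressor DREAM, measured 8.42 for both experimenters. *Kcne3*, which holds Kv7.1 open in epithelia, measured 7.86 for experimenter 2 and 8.17 for experimenter 1. *Kcnab2* and *Kcnab1*, the cytoplasmic beta subunits of Kv1 channels, measured 7.32 and 6.92 for experimenter 2 and 7.21 and 6.41 for experimenter 1. *Kcnmb4*, the BK accessory subunit known from neurons, measured 7.05 for experimenter 2 and 7.09 for experimenter 1. *Kcne4*, an inhibitor of Kv7.1, measured 6.81 for experimenter 2 and 6.51 for experimenter 1. *Kcnip2*, *Kcnip4*, *Kcnab3*, *Kcne1*, *Kcnmb1* and *Kcnip1* lay between the floor and the median.

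**Figure D2:**
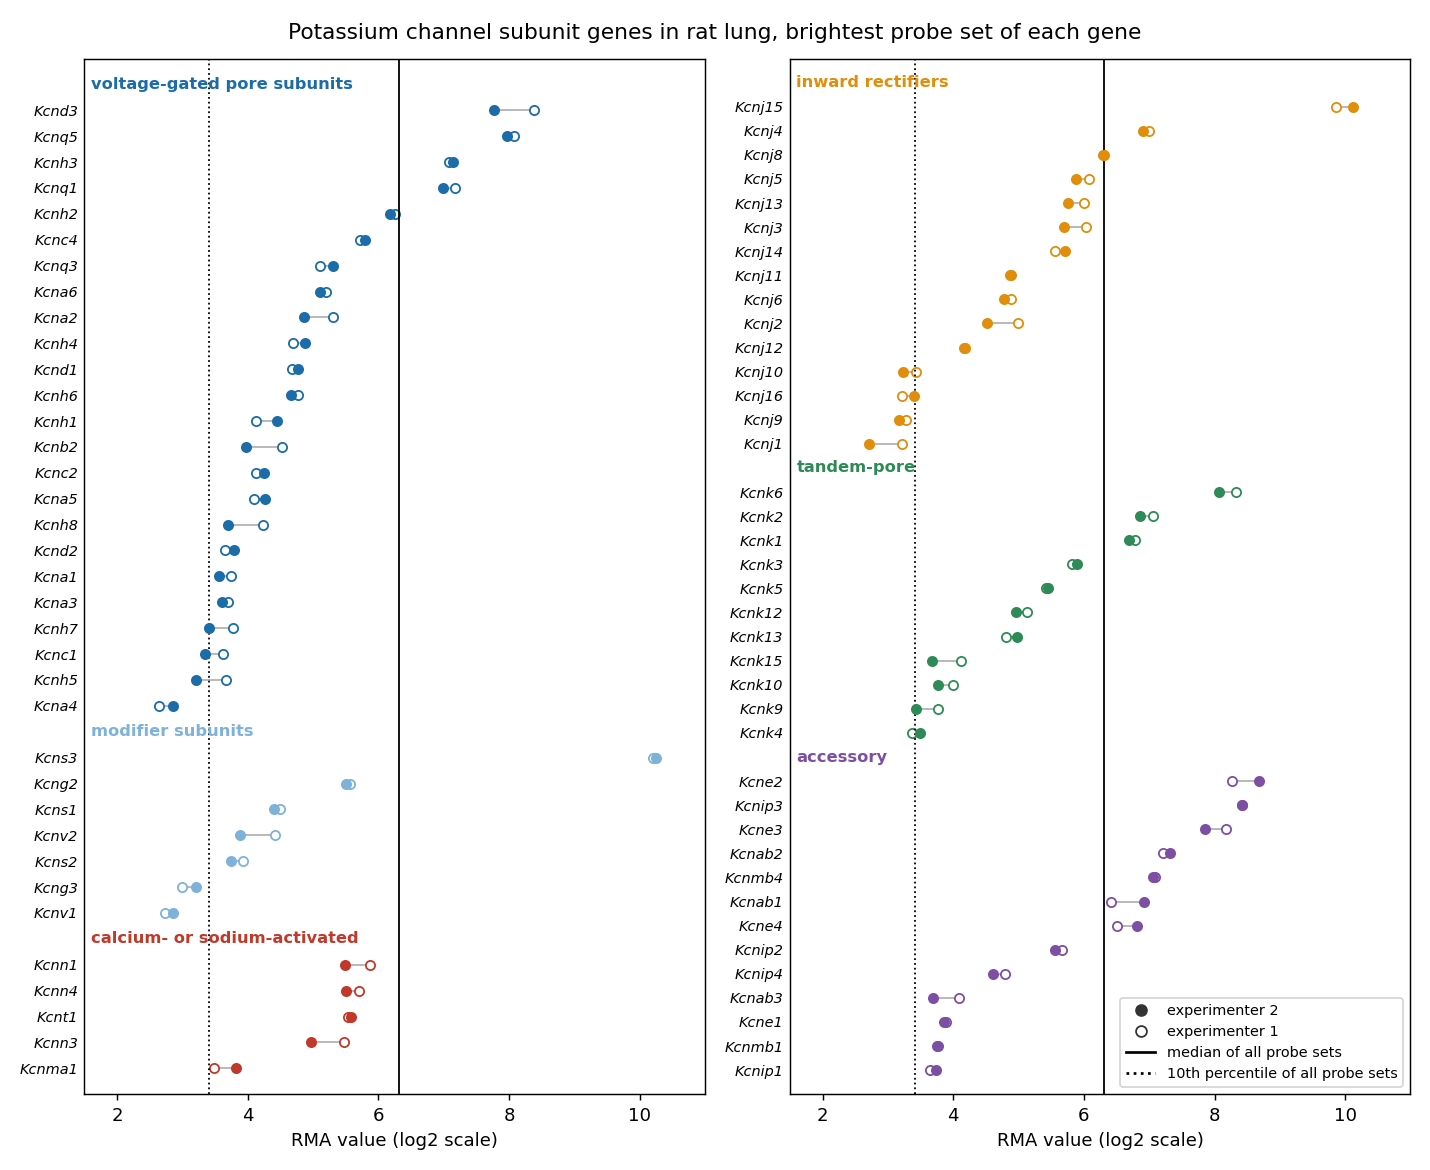
RMA value (log2 scale) of the brightest probe set of each of the 75 Kcn genes, by class, with filled points for experimenter 2 and open points for experimenter 1. The solid line is the median and the dotted line the 10th percentile of all means; 17 genes lie right of the median on both arrays, led by *Kcns3* and *Kcnj15*, and 7 have means left of the dotted line.

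Of 20 genes listed as partners or relatives of these channels, 17 had a value, 8 lay above the median of both arrays, where 66.1% of all genes did, and none was near the floor. Their median difference was -0.14, against -0.049 for all genes, and 13 of the 17 were lower for experimenter 2, where 58.7% of all genes were. The brightest by mean were *Abcc9*, *Akap9*, the scaffold *Dlg1*, *Pias3* and *Nedd4l*. The largest differences of these 5 were those of *Nedd4l*, a ubiquitin ligase acting on Kv7 channels, at 8.93 for experimenter 2 and 8.50 for experimenter 1, and *Akap9*, the scaffold that ties protein kinase A to Kv7.1, at 8.80 for experimenter 2 and 9.46 for experimenter 1. *Akap9* was the 1 partner at least 1.5-fold apart, where 3.24% of all genes were. The Kv4 partners *Dpp6* and *Dpp10* measured 4.54 and 4.11 for experimenter 2 and 4.65 and 4.07 for experimenter 1, below the median of both arrays.

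How far a gene could be placed depended on the probe set. Of the 75 genes, 44 had 1 probe set and 31 had several, up to 6 for *Kcnc2*. The brightest and dimmest probe sets of those 31 genes were a median of 1.58 apart, and for 11 genes they were at least 2 apart. The brighter probe set of *Kcnj15* lay 4.92 above the dimmer one, whose mean was 5.07, and *Kcne2* had 8.47, 6.74 and 3.79. *Kcnq5* ran from 8.02 to 3.98, *Kcnd3* from 8.08 to 4.15, *Kcne3* from 8.01 to 4.12, *Kcnip3* from 8.42 to 5.02 and *Kcnab2* from 7.27 to 4.10. The others were *Kcnj4*, *Kcnk6*, *Kcnip2* and *Kcng2*, with ranges of 2.67, 2.54, 2.28 and 2.00. Of the 17 genes above the median by any probe set, 11 had several, and for each of those 11 at least 1 further probe set was not above the median on both arrays. At the lower end, 16 genes had a probe set near the floor and 7 had all of theirs there. *Kcnip1* at 3.41 was the lowest probe set just outside the floor and *Kcnma1* at 3.39 the highest inside it.

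**Figure D3:**
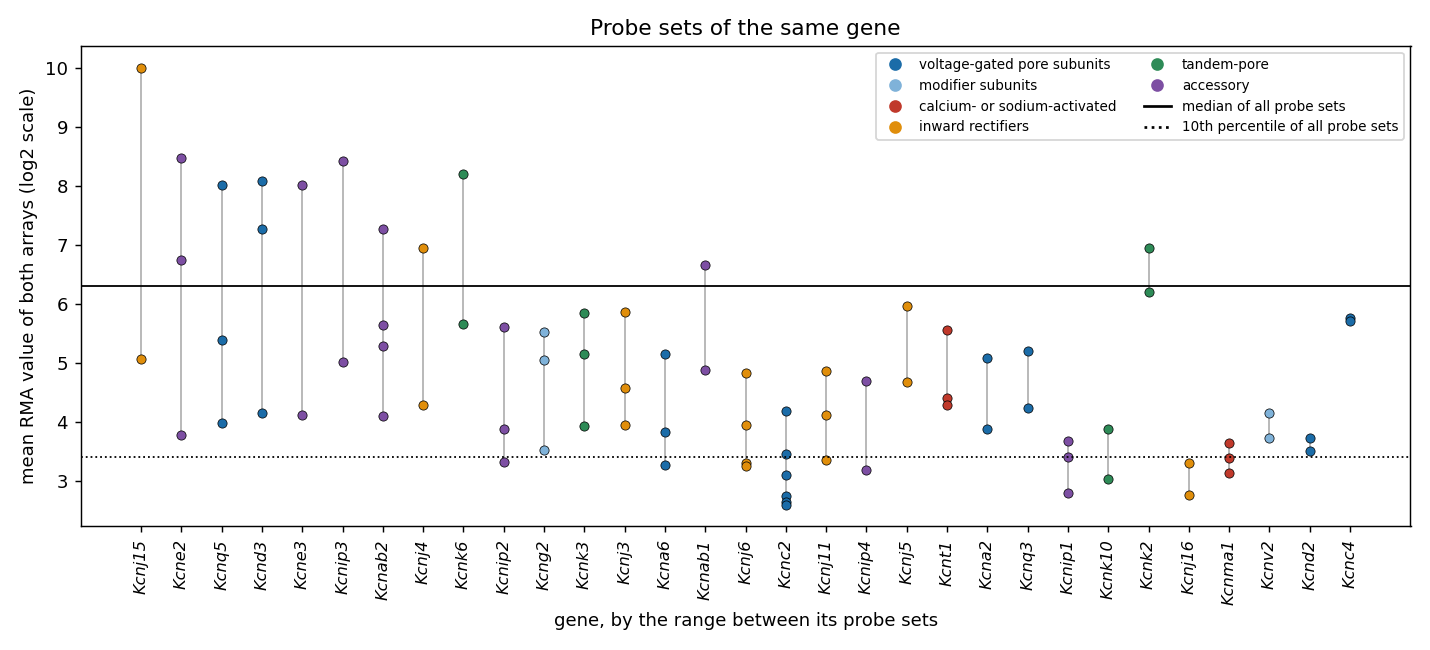
Mean RMA value of both arrays (log2 scale) of every probe set of the 31 Kcn genes with at least 2, ordered by range, with the median (solid) and 10th percentile (dotted) of all means. The points of *Kcnj15* span 4.92 and those of *Kcnc4* span 0.06.

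Between the arrays the family kept its order closely. Across the 126 probe sets, which share both arrays and are not replicates, the values of experimenter 2 and experimenter 1 had Pearson's r = 0.989 and Spearman's rho = 0.978, as a description. The same values over all probe sets are not given, so whether this closeness is particular to the family was not tested. Of the 20 highest on each array, 19 were the same probe sets, and the median change in rank was 4. *Kcnh8* moved furthest, to rank 91 for experimenter 2 against rank 66 for experimenter 1.

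Differences are given as experimenter 2 minus experimenter 1. Their median was -0.093 over the 126 probe sets and -0.052 over all probe sets, and their SD over probe sets was 0.23 against 0.28 for all. The array of experimenter 2 was lower for 81 of the 126 (64.3%), where 58.7% of all probe sets were lower. Within 1.2-fold lay 92 of the 126 (73.0%), beside 69.4% of all. By class the median difference was -0.089 for voltage-gated pores, -0.10 for modifiers, -0.067 for calcium- or sodium-activated pores, -0.091 for inward rectifiers, -0.15 for tandem-pore subunits and -0.034 for accessory subunits, which turned to 0.024 after loess and 0.013 after quantile normalization. The other classes kept medians below 0 under these scalings and median centring, and the share of lower members was 57.1% after loess, against 49.9% of all probe sets. Tandem-pore probe sets were lower for experimenter 2 in 12 of 16. On the deposited scale, 10 of the 22 near the floor were lower for experimenter 2 (45.5%), against 59.8% of all probe sets near the floor. A further 85 were neither near the floor nor above the median on both arrays. Of these 61 were lower (71.8%), against 57.3% of all such probe sets.

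No member was 2-fold apart, where 0.37% of all probe sets were. At 1.5-fold (0.585 on the log2 scale), 2 of the 126 were lower for experimenter 2 and 0 higher, where 2.3% of all probe sets were lower and 2.05% higher, so the family's share was no larger than the background. By brightest probe sets it was 1 of 75 genes, where 3.24% of all genes were at least 1.5-fold apart. The probe sets past this bound were the brightest of *Kcnd3*, at -0.61 (1.53-fold), and the dimmer of *Kcnj5*, a G-protein-gated subunit of the heart atrium, at -0.60 with 4.38 for experimenter 2 and 4.98 for experimenter 1. Neither passed 1.5-fold after median centring, loess or quantile normalization, where *Kcnd3* differed by -0.58, -0.56 and -0.57 and *Kcnj5* by -0.57, -0.55 and -0.54. Other probe sets of the same genes differed less: *Kcnd3* by 0.18 and -0.03, and *Kcnj5* by -0.20. Just inside the bound were *Kcnb2* at -0.55, *Kcnh8* at -0.54 and *Kcnv2* at -0.53. The largest positive differences were those of *Kcnab1* at 0.51 and *Kcne2* at 0.42, where the other probe set of *Kcnab1* differed by -0.13 and the others of *Kcne2* by -0.14 and 0.28.

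By marker list, 5 of 6 smooth muscle, 4 of 5 alveolar type 2 and 1 of 4 measured neuroendocrine markers were lower for experimenter 2. Over all genes this share was 58.7%. Their median differences were -0.07, -0.07 and 0.04, against -0.049 for all genes, and none was 1.5-fold apart. Among measured markers, 3 of 3 macrophage and 3 of 4 each of alveolar type 1, pericyte and T cell markers were lower. So were 2 of 4 endothelial, 1 of 2 club and 1 of 2 red cell markers. Heart-muscle markers were low on both arrays and 4 of the 5 measured were lower for experimenter 2, where 58.7% of all genes were. The brightest, *Tnni3*, measured 5.20 for experimenter 2 and 5.86 for experimenter 1 and was the 1 of the 5 at least 1.5-fold apart, at -0.67. Their summed level was 6.68 for experimenter 2 and 7.06 for experimenter 1 on the log2 scale, and the defining *Myh6* and *Myl7* measured 3.36 and 3.56 for experimenter 2 and 3.66 and 3.72 for experimenter 1. Of 4 measured nerve markers, 3 were lower for experimenter 2, all 3 by at least 1.5-fold, where 3.24% of all genes were that far apart. These were *Mbp*, *Sox10* and *Nefm*, the last at percentile 11.7. The other, *Nefl*, was near the floor and higher, at 3.28 for experimenter 2 and 2.91 for experimenter 1. The median difference was -0.63. Summed levels were 8.71 for experimenter 2 and 9.30 for experimenter 1, of which *Mbp* alone measured 8.51 and 9.11. The part of heart or nerve tissue in the differences of *Kcnj5*, *Kcnd3* or other members was not tested.

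For the 31 genes with several probe sets, the brightest and second brightest differed in the same direction for 14 (45.2%), where this held for 53.3% of all 4525 such genes. *Kcnma1* was higher for experimenter 2 by all 3 of its probe sets, by 0.33, 0.06 and 0.05. The brightest of the 3 lay at percentile 13.7, and the other 2 were near the floor, with means of 3.39 and 3.14. *Kcnj3*, the other atrial G-protein-gated subunit, differed by -0.33, -0.31 and -0.04. The last of these turned to 0.015 after loess and 0.008 after quantile normalization. The 3 small- and intermediate-conductance genes *Kcnn1*, *Kcnn3* and *Kcnn4*, with 1 probe set each, differed by -0.38, -0.50 and -0.19. These 5 genes were singled out after their values were seen.

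**Figure D4:**
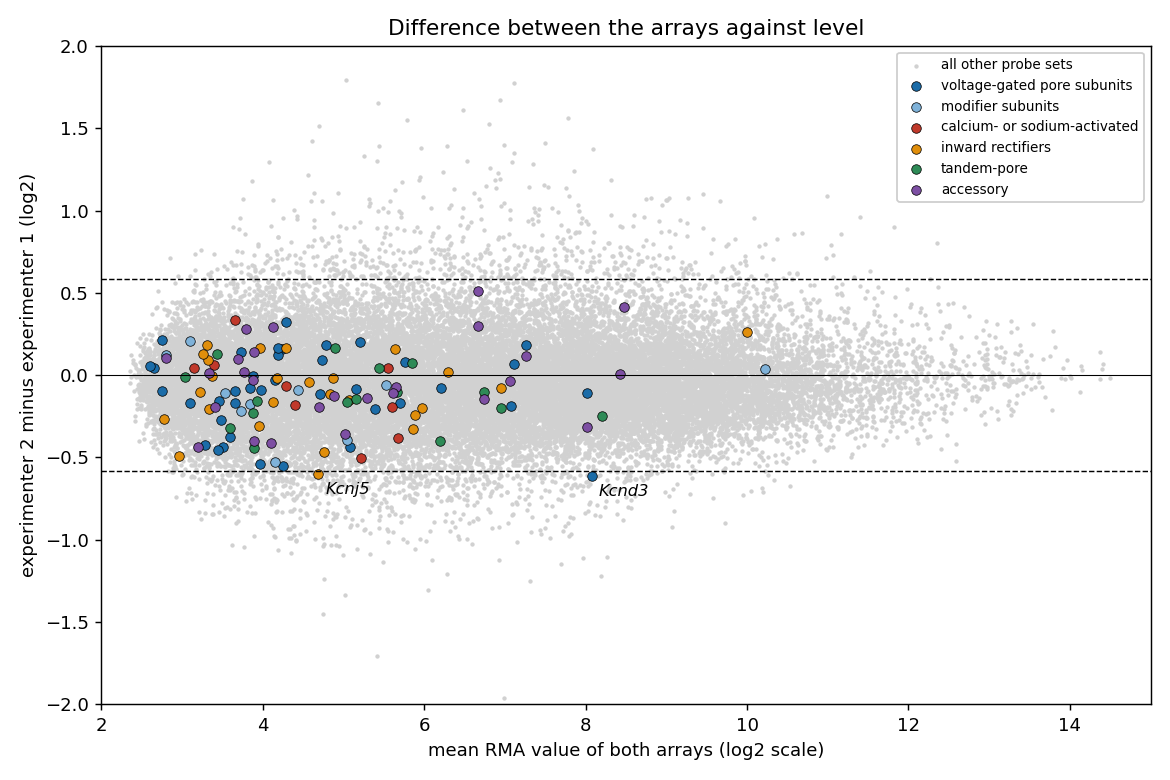
Difference between the arrays (experimenter 2 minus experimenter 1, log2) against the mean of both (log2 scale) for the 126 Kcn probe sets, coloured by class, over all other non-control probe sets in grey. Dashed lines mark 1.5-fold; 2 Kcn probe sets, of *Kcnd3* and *Kcnj5*, lie below the lower line and 0 above the upper one.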

How the data were processed

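The values are log2 RMA values deposited by the authors, made with RMA per the submitters' processing notes: background correction, a common intensity distribution and 1 summary per probe set. Its version, and which arrays were processed together, are not stated by those notes; base 2 was inferred from the range seen. A common distribution hides differences in total RNA between arrays processed together, and whether these 2 were is not stated. The deposited medians still differed, at 6.28 for experimenter 2 and 6.32 for experimenter 1. The number of arrays, 1 per experimenter, limits the precision. Of 31099 probe sets, 57 controls were left out. Annotation symbols were set against GRCr8 through Entrez identifiers, and 0 of the 126 members changed name. The members, lists and bounds were chosen with earlier results of these data known. All genes with a probe set above the median on both arrays, near the floor, past 1.5-fold or with probe sets 2 or more apart were named. A gene was placed by its brightest probe set. Fold rules replaced tests. Promoter sequences came from RefSeq (GRCr8). Alternatives were other scalings, filters, bounds and probe set choices. Python 3.11.15, numpy 2.4.6, pandas 2.3.3, scipy 1.17.1, statsmodels 0.14.6 (loess, fraction 0.3) and matplotlib 3.10.9 were used, and the scripts were tested on simulated data.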

Additional observations from a re-analysis of the deposited data

How the results depend on the processing

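No paired analysis was possible because there is a single array on either side, and none could be left out. The 19 probe sets above the median became 4 with the upper quartile as the bound, and the 22 near the floor became 9 at the 5th and 65 at the 25th percentile, which follows from moving the bounds. Of the 2 probe sets 1.5-fold apart, 0 stayed past it after median centring, loess or quantile normalization, and 1 had a mean at or above the median. The 1 gene past it by its brightest probe set (*Kcnd3*) became 0 with the mean over probe sets and 0 after centring. The median difference ran from -0.096 to -0.035, where the reported one was -0.093. Of the 36 alternative values, 27 were counted as close to the reported ones, among them median differences of -0.036 after loess and -0.039 after quantile normalization. Values by current symbols were the same as the reported ones, with 0 members renamed, and median centring cannot change an SD. The count of 27 is therefore no measure of robustness. Low signal limits most members, since no detection calls were used.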

Other observations

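Some probe sets designed from the same source sequence record gave unlike signals. Of *Kcne2*, one such probe set measured 8.68 for experimenter 2 and 8.27 for experimenter 1, and another measured 3.93 for experimenter 2 and 3.65 for experimenter 1, which is a gap of 4.69 in the mean. Pairs from one record for *Kcnc2* and *Kcna6* were 0.86 and 0.56 apart. Of the 6 *Kcnc2* probe sets, whose gene encodes the fast Kv3.2 channel known from interneurons, 4 were near the floor.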
